A study of Mus musculus with 7 samples.

Results

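Cultures labelled as primary embryonic motor neurons of the mouse that received either of 2 opposite miR-218 lentiviruses were compared, as 1 arm, with cultures of the same label that received an empty lentivirus. Several defining motor neuron markers were at or near 0 in all libraries, as given further on, so motor neuron is used here as the label and not as an identity shown by the counts. The arm comprised 5 libraries, 3 with the miR-218 overexpression virus (OE) and 2 with the miR-218 knockdown virus (KD), and was set against the 2 empty-virus libraries (control) of the same series, which holds 7 libraries in all. Of the 23366 genes in the count table, 12134 had enough counts to be tested. The comparison gives what the opposite manipulations of miR-218 had in common relative to the empty vector, and a second comparison, OE against KD, gives where they parted.

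All 7 cultures came from C57BL/6 embryos labelled as embryonic day 13.5, with cells separated from dissociated spinal cord over an Optiprep density gradient. The protocol text also names a rat embryonic stage in the same sentence as the mouse one, which leaves the source of the cultures in part unclear, and the mouse strain and stage of the sample labels are used here. Every culture was grown with CNTF and GDNF at 1 ng/ml, neurotrophic proteins that keep motor neurons alive, and received 200 µM fluorodeoxyuridine, an inhibitor of DNA synthesis used to hold back glia, after 5 days in culture. The sample titles name the vector pUltra for all groups. The labels give no viral titre, no insert sequence and no share of transduced cells, so that any feature other than miR-218 in which both inserts differ from the empty vector cannot be told apart from the grouping. Nothing in them ties a library to its own dish or litter, so the p-values speak only of how these samples vary, a variation that may be technical.

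MiR-218 is a microRNA abundant in motor neurons, made from precursors inside introns of the axon guidance genes Slit2 and Slit3. A microRNA pairs through its seed, the bases next to its 5' end, with matching words in the 3' UTR of messenger RNAs, and the paired messengers are translated less and degraded. Raising and lowering a microRNA therefore moves its direct targets in opposite directions. The mature miR-218-5p is shown because the seed, in capitals, defines the words searched in 3' UTRs further on. RefSeq places it, on GRCm38.p6, at chr5:48223966-48223986 in the Mir218-1 precursor and at chr11:35616840-35616860 in Mir218-2, both on the plus strand.
mmu-miR-218-5p: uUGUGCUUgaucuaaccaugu

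Counts per library summed to 2879382 to 3360686 in the virus arm and 1591812 and 2099714 in the controls, so that the control arm was both the smaller and the shallower. The 50 most abundant genes took 12.91% to 14.25% of each library. Pairs of libraries within a group varied 2.95 to 3.54 times as much as counting error alone, with the control pair at 3.37, and no pair was a duplicate of another. On the 3 main axes of variation between libraries (principal components) the controls lay far apart. Control 1 stood at 30.2, 19.3 and -35.9, and control 2 at 51, -28.2 and 15.4. The OE libraries stood at -10.7 to -2.5, 15.5 to 19 and 10.3 to 16.5. Those of KD stood at -31.7 and -27.2, -18.7 and -22.6, and -11.4 and -10. The part of the controls' lower depth in their distance was not tested. Levels are given in CPM, counts scaled to a common library total, with TMM scaling. This scale compares a gene between libraries but not genes of different length with each other. With counts thinned to the depth of the shallowest library, 323 genes were called higher and 83 lower in the virus arm, against the 317 and 69 described here at full depth.

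The precursor Mir218-1 checked the overexpression label. It had 342, 234 and 289 CPM in OE, 42.8 and 52.5 CPM in KD, and 52.3 and 51.9 CPM in control. OE stood apart from KD by a log2 difference of 2.60 (95% interval 2.29 to 2.91, edgeR adjusted p = 1.29e-13), and KD minus control was -0.13. The reads come from the precursor or its host transcript and not from the mature microRNA, so they do not check the knockdown. Pooled over both viruses the gene was not called (log2 difference 1.88, SE 1.11, adjusted p = 0.466), since the OE minus KD difference of a gene enters its spread in the pooled test. The host genes Slit2 (log2 difference 0.27) and Slit3 (0.17) were not called, and Mir218-2 had no count.

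Markers of the labelled cell type were scarce in all 7 libraries. Of 12 motor neuron markers, 6 had enough counts to be tested and none was called (median log2 difference 0.03), and their summed level was 55.3 to 71.6 CPM in the virus arm against 49.3 to 51.8 CPM in control. The transcription factor Mnx1 had no count anywhere, Isl2 had a single count in 1 control, and the acetylcholine transporter Slc18a3 had a single count in each of 2 OE libraries. Chat, the enzyme that makes acetylcholine, had 0.608 to 7.63 CPM in the virus arm and 1.28 and 2.44 CPM in control. Spinal interneuron markers summed to 675 to 843 CPM in the virus arm against 834 to 891 CPM in control. In bulk RNA of such cultures fewer cells of a type and less RNA per cell cannot be told apart.

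Both viruses together shifted genes mostly upward. In the virus arm 317 genes rose (2.61% of those tested) and 69 fell (0.569%), calling a gene at a Benjamini-Hochberg adjusted p under 0.05 in edgeR's quasi-likelihood test and a fold change over 1.5, so that 82.1% of the 386 calls (3.18% of genes tested) were rises. The median log2 difference over all genes tested was 0.00, while it was 1.31 among the genes that rose and -0.80 among those that fell. All 317 rises lay above both controls in each of the 5 virus libraries and all 69 falls below both. Over all genes tested 1580 (13.0%) lay above and 1387 (11.4%) below in that way, so the separation of the called genes follows from the call and is not further support for it. A larger number, 2134 genes, had an unadjusted p under 0.05.

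How far the viruses agreed was measured by the OE minus KD difference, in a fit with 1 mean per group that uses no control library in the difference. Between the viruses 643 genes differed (5.3%), 356 of them higher in OE (2.93%) and 287 higher in KD (2.37%). Among the 317 rises 1 was higher in OE than in KD, 20 were higher in KD, and 296 were not called different. Missing the threshold does not show that the viruses acted alike, and the 95% interval of the OE minus KD difference stayed within 1.5-fold for 96 of the 317 and within 1 log2 unit for 245. Among the 69 falls 5 were higher in OE than in KD, which is a deeper fall under KD, and 64 were not called different, with 33 intervals within 1.5-fold and 56 within 1 log2 unit. The KD mean lay further from control than the OE mean for 220 of the 317 rises and 52 of the 69 falls, and the median OE minus KD difference of the rises was -0.18. The pooled test counts the OE minus KD difference as spread, so genes on which the viruses differ had less chance of being called. With the unweighted mean of the OE and KD means set against control in the 3-group fit, which does not count it, 664 genes were called higher and 299 lower, and 185 of those were also called between OE and KD.

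**Figure D1:**
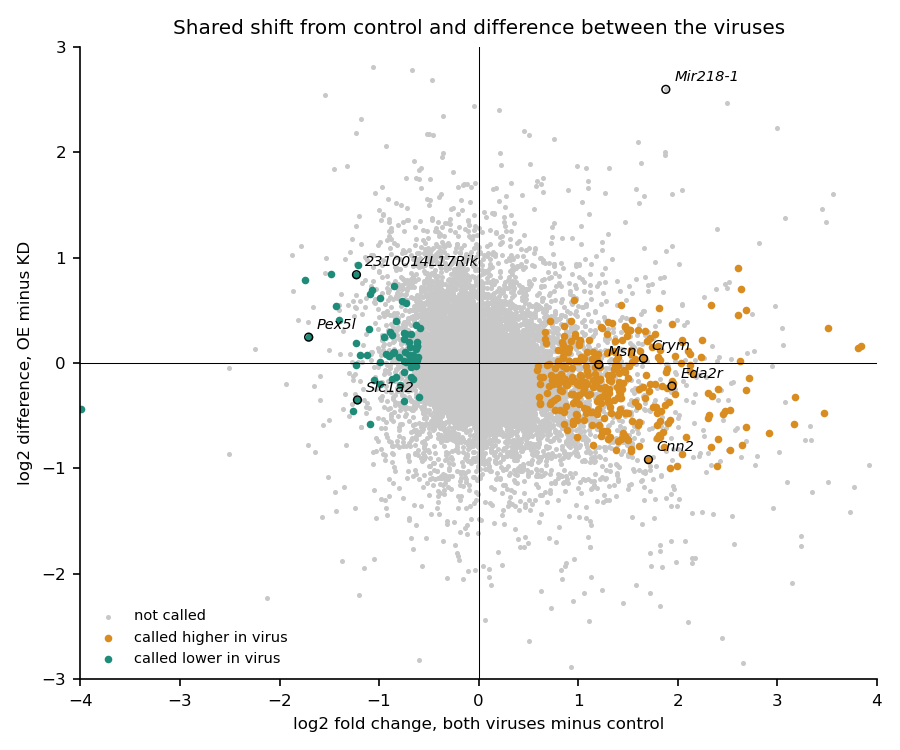
Each point is 1 of the genes tested, with the log2 fold change of both viruses minus control on the horizontal axis and the log2 difference OE minus KD on the vertical axis, orange for the 317 called higher, green for the 69 called lower and grey for the rest, with 24 genes beyond the axes. Called genes lie near the horizontal line through 0, Msn, Crym and Slc1a2 among them, whereas Mir218-1 lies high at 2.60.

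Number and identity of calls rested on the 2 controls. Without control 1 there were 108 rises and 19 falls, and without control 2 there were 31 and 2. The counts after leaving out any 1 virus library were 233 to 347 and 47 to 78. Of 83 called genes named here by rule, 33 were called without control 1 and 15 without control 2, and all 83 kept their direction in both cases. The kept direction follows from arms that did not overlap in any of the 83, and is not further support. Limma-voom called 75 rises and 33 falls on the same design, and DESeq2 409 and 112. Across the 16 other settings tried, 27 genes were called higher in every one and 2 lower in every one, named here after their values were seen. The rises were Anxa5, Cald1, Cav1, Ccnd1, Cd109, Cklf, Col4a5, Crym, Eda2r, Igfbp2, Msn, Nfib, Perp, Plat, Pm20d1, Ppic, Pros1, Ptgr1, S100a10, S100a6, Serpinh1, Sparc, Stk17b, Tmbim1, Txnip, Vim and Wisp1, and the falls were Nbea, a scaffold of neuronal membrane traffic, and Slc1a2.

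**Figure D2:**
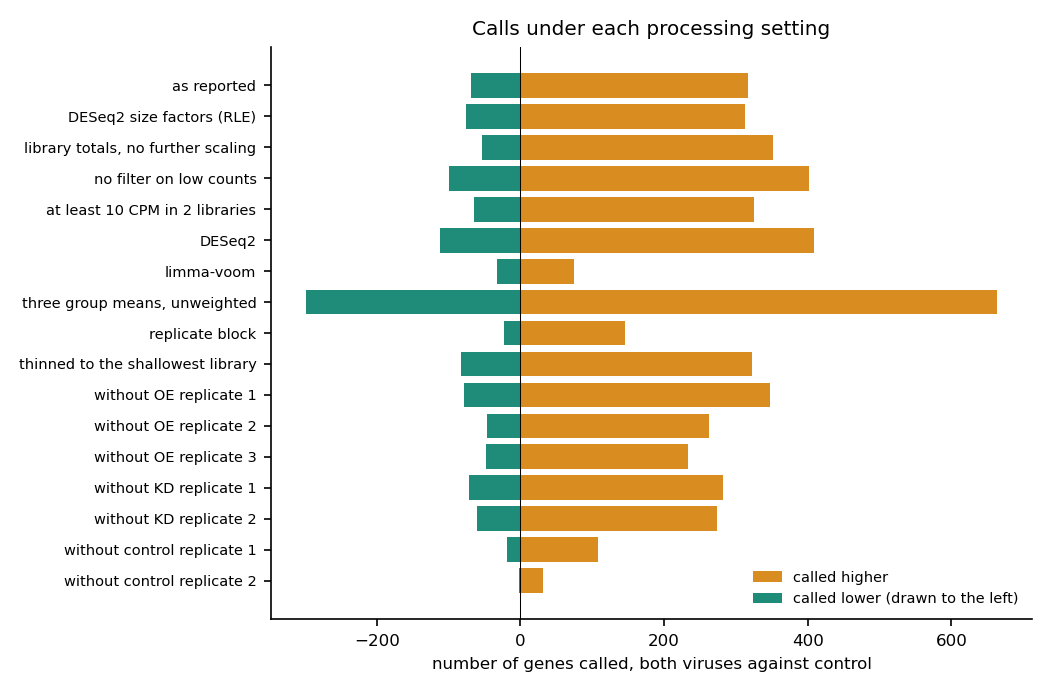
Number of genes called in both viruses against control under each processing setting, with rises drawn to the right in orange and falls to the left in green. Rises outnumber falls under all settings, from 664 and 299 with 3 unweighted group means down to 31 and 2 without control replicate 2.

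The rises on which the viruses were most alike were Sparc, Msn, Igfbp2, Perp, Anxa5 and Crym. They were taken from the rises of at least 1 log2 unit as those whose OE minus KD interval reached least far from 0, so their small OE minus KD difference is how they were chosen and not a result. Crym, whose protein μ-crystallin binds thyroid hormone in the cytosol, had 136, 134 and 185 CPM in OE, 133 and 161 CPM in KD, and 55.7 and 38.4 CPM in control. Its log2 difference over both viruses was 1.66 (SE 0.19, adjusted p = 0.000237), and all virus libraries were more than 2 times the higher control. Msn, which encodes moesin, a linker of actin filaments to the cell membrane, had 399, 440 and 467 CPM in OE, 426 and 453 CPM in KD, and 213 and 164 CPM in control (log2 difference 1.21, SE 0.12, adjusted p = 8.6e-05).

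Sparc encodes a secreted protein that binds collagen and loosens cell contacts. It reached 1620, 1699 and 1828 CPM in OE and 1513 and 1810 CPM in KD, against 877 and 744 CPM in control, with a log2 difference of 1.06 (SE 0.10). Igfbp2, a secreted carrier of insulin-like growth factors, averaged 691 ± 75.1 CPM over both viruses (SD, n = 5) and 307 ± 13.1 CPM in control (SD, n = 2). Perp, a membrane protein of cell junctions and a transcriptional target of p53, averaged 169 ± 19.2 CPM and 75.4 ± 8.79 CPM in the same arms. Anxa5, which binds phosphatidylserine, averaged 143 ± 11.0 CPM over both viruses and 66.8 ± 8.46 CPM in control. In the annotation on mm9, the build of the counts, Crym lies at chr7:127329894-127345625 on the minus strand, Msn at chrX:93291381-93363891 on the plus strand and Sparc at chr11:55208002-55233582 on the minus strand.

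**Figure D3:**
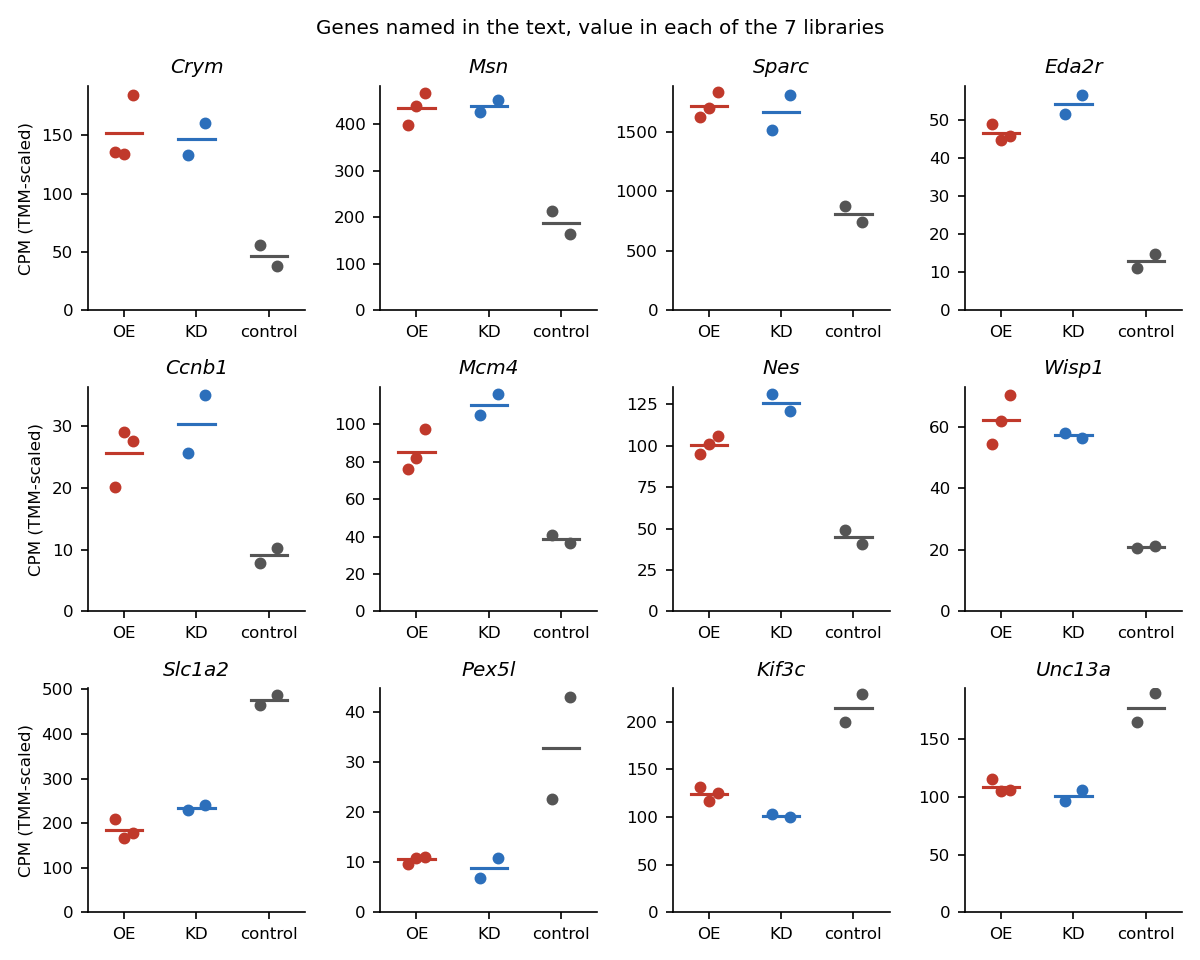
Level of 12 genes in each library, in CPM after TMM scaling on linear axes that start at 0, with OE in red, KD in blue and control in grey, 1 point per library and a bar at the group mean. Crym, Msn, Sparc, Eda2r, Ccnb1, Mcm4, Nes and Wisp1 lie higher in all virus libraries than in both controls, and Slc1a2, Pex5l, Kif3c and Unc13a lie lower.

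By size, the 12 greatest rises among genes of at least 10 CPM on average were Cklf, Wisp2, Msrb3, Anln, Pask, Hmmr, Fam111a, Lama5, Zwilch, Ptx3, Epha2 and Ltbp2, with log2 differences of 2.16 to 2.72. Cklf, a secreted chemokine-like factor, had 18.6, 21.0 and 19.1 CPM in OE and 25 and 18.2 CPM in KD, against 2.93 and 3.20 CPM in control (log2 difference 2.72, SE 0.38, adjusted p = 0.000965). The controls held 11 reads of it in all, and the other 11 genes had 8 to 24 reads over both controls, so these folds rest on few control reads. The log2 difference of Epha2 was 3.44 without control 1 and 1.70 without control 2, and that of Ltbp2 was 1.31 without control 2, while without control 1 no control read of Ltbp2 is left to set a fold against. Without control 1, Cklf, Msrb3, Epha2 and Ltbp2 were called, and without control 2, Cklf, Fam111a and Ptx3. Anln, the cytokinesis scaffold anillin, Hmmr, a hyaluronan and spindle binding protein, and Zwilch, a kinetochore protein, belong to cell division. Lama5, a laminin chain, Ltbp2, a matrix protein of elastic fibres, and Wisp2, a secreted CCN protein, belong to the extracellular matrix, and Ltbp2 had no read in control 2. Epha2 encodes an ephrin receptor, Ptx3 an acute-phase pattern recognition protein, and Msrb3 an enzyme that reduces oxidised methionine.

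Genes of cell division rose under both viruses although every culture had received fluorodeoxyuridine. Of 30 tested genes of mitosis and cytokinesis 15 rose and none fell (50.0%, against 2.61% of all genes tested), the median log2 difference was 1.26, and all 30 differences were above 0. Ccnb1, the cyclin that drives entry into mitosis, had 20.1, 29.0 and 27.5 CPM in OE, 25.6 and 34.9 CPM in KD, and 7.82 and 10.3 CPM in control (log2 difference 1.61, SE 0.32, adjusted p = 0.00961). The lowest virus library was nearly 2 times the higher control. Cenpa, the histone H3 variant that marks centromeres and no member of the list, had 20.4, 21.0 and 21.6 CPM in OE and 37.8 and 38.7 CPM in KD, against 5.38 and 8.33 CPM in control, and it rose further under KD (OE minus KD -0.86, adjusted p = 0.0178). Nusap1, which bundles spindle microtubules, had a log2 difference of 1.42, and Anln, named above, one of 2.40. Mki67, the usual marker of cycling cells, had 47.1, 55.2 and 58.9 CPM in OE, 84.3 and 90.0 CPM in KD, and 33.7 and 34.0 CPM in control. The list's summed level was 758 to 921 CPM in OE and 1228 and 1290 CPM in KD, against 489 and 440 CPM in control. Called higher in KD than in OE were 8 of its 30 members, against 2.37% of all genes tested.

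DNA replication and nucleotide synthesis moved in the same direction. Of 30 tested genes 9 were higher (30.0%, against 2.61% of all genes tested) and none lower, with a median log2 difference of 0.93. Mcm4, a subunit of the replicative helicase, had 76.3, 82.1 and 97.5 CPM in OE and 105 and 116 CPM in KD, against 40.6 and 36.5 CPM in control (log2 difference 1.30, SE 0.20, adjusted p = 0.00185). Rrm1 and Rrm2, the subunits of ribonucleotide reductase, which makes deoxynucleotides, both had a log2 difference of 1.26, and both lay higher in KD than in OE (OE minus KD -0.64 and -0.52). Cdc6, which loads the helicase onto origins, rose by 2.69 on the log2 scale with 6 reads over both controls. Its log2 difference was 4.0 without control 1 (adjusted p = 0.0491), where 1 control read is left, and it was not called without control 2 (2.14, adjusted p = 0.201). Ccnd1, the cyclin of the first phase of the cycle, had 182, 181 and 166 CPM in OE and 215 and 179 CPM in KD, against 79.2 and 80.7 CPM in control, and belongs to the 27 genes called under all settings. Without control 1 the lists held 2 mitosis and 3 replication calls, and without control 2, 1 and 0. Ccnb1 was not called without control 1 (log2 difference 1.42, adjusted p = 0.131) or control 2 (1.81, adjusted p = 0.101), and Mcm4 was called without control 1 (1.38, adjusted p = 0.0297) but not without control 2 (1.24, adjusted p = 0.0701).

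Promoters of Anln and Ccnb1, members of the mitosis list, and of Cenpa are shown because they carry short words that many promoters of the list share. Each window runs from 250 bases before to 50 bases after the start of the gene, from RefSeq on GRCm38.p6, at chr9:22389157-22389456 on the minus strand for Anln, chr13:100786437-100786736 on the minus strand for Ccnb1 and chr5:30666636-30666935 on the plus strand for Cenpa. Capitals mark CCAAT or its complement ATTGG, the CCAAT box, and TTTGAA or its complement TTCAAA, the CHR element of cell cycle genes, searched on both strands, and no marked word overlaps another.
Anln: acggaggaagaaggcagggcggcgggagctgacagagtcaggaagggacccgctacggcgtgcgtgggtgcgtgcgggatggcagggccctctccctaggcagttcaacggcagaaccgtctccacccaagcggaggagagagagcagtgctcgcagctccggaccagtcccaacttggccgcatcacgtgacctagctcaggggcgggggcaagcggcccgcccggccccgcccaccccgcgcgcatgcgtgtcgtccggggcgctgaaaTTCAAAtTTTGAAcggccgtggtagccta
Ccnb1: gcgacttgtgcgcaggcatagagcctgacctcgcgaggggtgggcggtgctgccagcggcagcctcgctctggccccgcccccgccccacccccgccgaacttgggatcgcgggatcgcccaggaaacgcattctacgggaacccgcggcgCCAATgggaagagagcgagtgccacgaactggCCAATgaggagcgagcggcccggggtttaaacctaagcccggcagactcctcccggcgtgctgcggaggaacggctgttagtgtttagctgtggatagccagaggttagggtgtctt
Cenpa: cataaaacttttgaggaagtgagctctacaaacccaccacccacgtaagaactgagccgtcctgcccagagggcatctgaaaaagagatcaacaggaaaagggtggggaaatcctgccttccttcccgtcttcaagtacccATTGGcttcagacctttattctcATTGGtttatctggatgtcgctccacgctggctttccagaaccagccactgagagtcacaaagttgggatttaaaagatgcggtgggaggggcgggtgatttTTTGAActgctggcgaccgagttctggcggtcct

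Anln held a pair of CHR elements next to its start, Ccnb1 a pair of CCAAT boxes, and Cenpa a pair of CCAAT boxes and 1 CHR element. The promoter of Nusap1, named above and not shown, held neither word, so the 3 shown do not stand for every promoter. Over the mitosis list the CHR word stood in 19 of 26 promoters (73.1%), against 1350 of the 9664 promoters of all tested genes with an entry (14%). The CCAAT word stood in 22 of the 26 (84.6%), against 43.3% of all. The DNA replication list held the CHR word in 3 of 24 promoters (12.5%). Among all genes called higher it stood in 50 of 240 (20.8%), and among those called lower in 5 of 55 (9.09%). The list was chosen as genes of mitosis and cytokinesis, and the CHR element is a word of cell cycle genes. The shares over the list therefore describe the choice of genes and are not a result of the counts. A match is a word in the sequence and not a shown binding site.

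Targets of p53, the factor that halts division and starts cell death after DNA damage, were higher as well. Of 23 tested genes 7 rose and none fell (30.4%, median log2 difference 0.66). Eda2r, a death-domain receptor of the TNF family, had 49.0, 44.7 and 45.7 CPM in OE, 51.5 and 56.6 CPM in KD, and 11.2 and 14.7 CPM in control (log2 difference 1.94, SE 0.25, adjusted p = 0.000473), so the lowest virus library was over 3 times the higher control. Pmaip1, which encodes the BH3 protein Noxa, averaged 163 ± 22.7 CPM over both viruses (SD, n = 5) and 80.7 ± 2.80 CPM in control (SD, n = 2). Btg2, an antiproliferative gene, had a log2 difference of 1.45 and Perp one of 1.16. Mdm2, the ubiquitin ligase that limits p53, Phlda3, an inhibitor of Akt, and Tnfrsf10b, a receptor for the death ligand TRAIL, completed the 7, with 0.83, 0.73 and 1.23. Cdkn1a, the p21 inhibitor of cyclin kinases, was not called, with a log2 difference of 0.55 (adjusted p = 0.208). Without control 1 the list held 3 calls, and without control 2, 2, with Eda2r called in both (log2 difference 1.75 and 2.14).

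Actin, adhesion and matrix genes made up another part of the rise, which for the actomyosin list was greater under KD. Among 24 genes of actomyosin, of targets of the factor SRF and of focal adhesions, 8 rose and none fell (33.3%, median 0.75). Of the same 24, 8 were called higher in KD than in OE, against 2.37% of all genes tested. The list's median was 0.59 in OE minus control and 1.09 in KD minus control. It summed to 2603 to 3003 CPM in OE, 3959 and 3784 CPM in KD, and 1892 and 1912 CPM in control. Among 15 genes of Yap, Taz, Tead and the CCN family 5 rose (33.3%, median 0.87). Cald1, caldesmon, which binds actin and restrains myosin, had 200, 183 and 209 CPM in OE, 226 and 248 CPM in KD, and 71.4 and 89.7 CPM in control (log2 difference 1.41, SE 0.15, adjusted p = 0.000167). Myl9, a light chain of nonmuscle and smooth muscle myosin, had 26.2, 45.1 and 33.9 CPM in OE, 58.4 and 55.4 CPM in KD, and 14.2 and 10.3 CPM in control, with a log2 difference of 1.82. Myh9, the heavy chain of nonmuscle myosin, and Myl12a, a light chain whose near-identical copy Myl12b makes its count uncertain, had 0.95 and 0.98. All 3 myosin genes lay lower in OE than in KD (OE minus KD -0.70 for Myl9, -0.55 for Myh9 and -0.49 for Myl12a), by less than 1.5-fold in Myh9 and Myl12a. Cald1 was called without control 1 and without control 2, and Myl9 was called in neither case (adjusted p = 0.0858 without control 1 and 0.201 without control 2).

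Smooth muscle markers had the highest median of all lists, 2.04 over 4 tested genes, but Lmod1 alone, a nucleator of actin filaments, was called (log2 difference 2.39, from 6 reads over both controls). Cnn1, calponin 1, illustrates the other 3: it had 35.0, 47.9 and 45.4 CPM in OE and 126 and 105 CPM in KD, against 11.2 and 17.3 CPM in control. Its log2 difference of 2.35 was not called (adjusted p = 0.168), with OE minus KD at -1.43 (95% interval -1.80 to -1.07). Acta2 and Tagln, smooth muscle actin and transgelin, had log2 differences of 1.72 and 1.33 and the same order of KD above OE above control. The list summed to 316 to 450 CPM in OE and 808 and 751 CPM in KD, against 169 and 173 CPM in control. Its defining gene Myh11, smooth muscle myosin, was at 0 in OE and control with 1 and 5 counts in KD, and Des, desmin, was at 0 throughout. The part of such cells in the actin result was not tested.

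Among secreted and membrane proteins of the same group, Wisp1, a CCN protein induced by Wnt signalling, had 54.4, 61.8 and 70.4 CPM in OE, 58.1 and 56.3 CPM in KD, and 20.5 and 21.1 CPM in control (log2 difference 1.53, SE 0.21, adjusted p = 0.000965). Cyr61, another CCN protein and a target of Yap, rose by 0.87 on the log2 scale, and Wwtr1, which encodes the coactivator Taz, by 1.29. Yap1, its relative, had 24.0, 23.1 and 32.1 CPM in OE and 21.2 and 22.3 CPM in KD, against 9.29 and 10.9 CPM in control. Of 28 collagens, laminins and other matrix genes 7 rose and none fell (25%, median 0.56), among them the collagen chains Col8a1 (1.55) and Col5a2 (1.29) and the matrix protein tenascin, Tnc (0.94). Of 14 integrins and adhesion receptors 5 rose (35.7%, median 0.88), including the tetraspanins Cd151 (1.54) and Cd9 (1.27), the hyaluronan receptor Cd44 (1.20) and the syndecan Sdc4 (1.02). Fibroblast and meningeal markers summed to 219 to 293 CPM in the virus arm against 156 to 176 CPM in control. Of 7 tested members 1 was called (14.3%, against 2.61% of all genes tested), Fn1, fibronectin (0.82). The part of these markers in the matrix result was not tested. The actomyosin, Yap, matrix and adhesion lists held 1, 2, 4 and 2 calls without control 1, and 1 each without control 2, and Wisp1 was called in both cases.

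Promoters of Myl9 and Cnn2 are shown because they carry a CArG box, the word bound by SRF, in capitals together with CCAAT. They come from RefSeq on GRCm38.p6, at chr2:156775214-156775513 for Myl9 and chr10:79988350-79988649 for Cnn2, both on the plus strand. Cnn2 encodes calponin 2, an actin-binding protein called higher in both viruses against control.
Myl9: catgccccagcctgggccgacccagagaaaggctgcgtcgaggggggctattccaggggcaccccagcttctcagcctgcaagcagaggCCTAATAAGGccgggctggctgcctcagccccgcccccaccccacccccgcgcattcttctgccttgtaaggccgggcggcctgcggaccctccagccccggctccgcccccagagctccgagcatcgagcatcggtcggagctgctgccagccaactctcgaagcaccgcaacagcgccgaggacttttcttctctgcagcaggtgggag
Cnn2: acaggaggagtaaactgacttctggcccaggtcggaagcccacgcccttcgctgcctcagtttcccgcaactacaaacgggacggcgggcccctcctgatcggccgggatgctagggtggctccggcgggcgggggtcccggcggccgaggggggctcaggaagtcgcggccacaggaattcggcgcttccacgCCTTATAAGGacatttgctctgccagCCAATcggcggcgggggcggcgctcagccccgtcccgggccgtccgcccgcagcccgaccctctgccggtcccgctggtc

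The CArG box stood in 5 of 23 promoters of the actomyosin list (21.7%), against 146 of all 9664 (1.51%), and among all genes called higher in 6 of 240 (2.5%). The word GGAATG or its complement CATTCC, bound by Tead factors, stood in 7 of 10 promoters of the Yap list (70.0%) and in 9 of 23 of the actomyosin list (39.1%), against 14.3% of all. Among all genes called higher it stood in 44 of 240 (18.3%), and among those called lower in 11 of 55. The actomyosin list was chosen to hold SRF targets and the Yap list around Yap and Tead. Their shares of these words therefore describe the choice of genes and are not a result of the counts.

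Some immune genes rose. Of 24 interferon-stimulated genes 3 rose (12.5%, against 2.61% of all genes tested, median 0.38): B2m, the light chain of MHC class I, H2-K1, a heavy chain whose many close relatives make its count uncertain, and Bst2, tetherin, which holds budding virus at the cell surface. B2m had 477, 469 and 471 CPM in OE, 331 and 384 CPM in KD, and 245 and 202 CPM in control (log2 difference 0.93, SE 0.15, adjusted p = 0.00295). OE lay above KD, by 0.40 (95% interval 0.21 to 0.59), a step under 1.5-fold. Of 23 genes of chemokines, NF-kB signalling and the acute phase 2 rose (8.7%), Ptx3 and the monocyte chemokine Ccl7, with Ccl7 at 5 reads over both controls. Of the same 23, 7 were called higher in OE than in KD, against 2.93% of all genes tested. Microglia and macrophage markers summed to 20.6 to 32.4 CPM in the virus arm against 28.8 to 31.8 CPM in control, with Csf1r at 0 in all libraries. B2m was called without control 1 (log2 difference 1.08, adjusted p = 0.0291) and not without control 2 (0.80, adjusted p = 0.131). H2-K1 was called without control 1 only, Ptx3 without control 2 only, and Bst2 and Ccl7 in neither case.

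Markers of astrocytes and radial glia lay mostly higher, with 1 clear exception. Of 11 tested, 5 rose and 1 fell (45.5% and 9.09%, median 0.67). A positive log2 difference was found in 9 of the 11. In each virus library 7 lay above both controls and 1 below, where 13.0% and 11.4% of all genes tested did. Nes, the intermediate filament of neural progenitors, had 94.9, 101 and 106 CPM in OE, 131 and 121 CPM in KD, and 49.4 and 41.0 CPM in control (log2 difference 1.29, SE 0.18, adjusted p = 0.000965). Vim, the filament of immature glia and mesenchymal cells, had 1601, 1723 and 1859 CPM in OE and 1442 and 1777 CPM in KD, against 1012 and 853 CPM in control. Fabp7, a fatty acid carrier of radial glia, rose by 0.67 on the log2 scale, Gja1, the gap junction protein connexin 43, by 1.29 and the glial transcription factor Sox9 by 0.82. The list members Aqp4 (-0.28), Aldoc (0.22) and Slc1a3 (0.24) were not called, and neither was Gfap, at 1.87 to 10.8 CPM in the virus arm and 2.56 and 3.91 CPM in control. The glutamate transporter Slc1a2 fell. The list summed to 3789 to 4511 CPM in the virus arm against 2750 to 3083 CPM in control, and the part of glial cells in the division, p53 and matrix results was not tested. Without control 1 the list held 3 rises, and without control 2, 1, with Nes at an adjusted p of 0.0524 there.

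Slc1a2 had the smallest p of the 69 falls. It encodes GLT-1, the transporter that clears glutamate from synapses, and is a published target of miR-218. It had 209, 166 and 177 CPM in OE, 230 and 240 CPM in KD, and 464 and 487 CPM in control, a log2 difference of -1.22 (SE 0.13, adjusted p = 0.000159). The 5 virus libraries lay at 166 to 240 CPM, below both controls by a wide gap. OE minus KD was -0.35 (95% interval -0.56 to -0.14, adjusted p = 0.0261), which is under the 1.5-fold of a call. The fall was called without control 1 (log2 difference -1.25, adjusted p = 0.00448) and without control 2 (-1.18, adjusted p = 0.0119). On mm9 the gene lies at chr2:102498816-102630941 on the plus strand.

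Among genes of at least 10 CPM on average the 12 greatest falls were Pex5l, Trhde, Nars2, Lrrc55, Pnmal1, Esrrg, 2310014L17Rik, Slc1a2, 5730508B09Rik, Flrt1, Kcnh1 and Larp1b, with log2 differences of -1.71 to -1.10. Pex5l encodes TRIP8b, a partner of the HCN pacemaker channels, and had 9.73, 10.8 and 11.1 CPM in OE and 6.87 and 10.9 CPM in KD, against 22.5 and 42.9 CPM in control (log2 difference -1.71, SE 0.30, adjusted p = 0.00499). The 5 virus libraries ran from 6.87 to 11.1 CPM with KD replicate 1 lowest, and the controls differed from each other almost 2-fold. Lrrc55, an accessory subunit of calcium-activated potassium channels, had 14.9, 23.4 and 18.8 CPM in OE, 30.3 and 22 CPM in KD, and 47.9 and 57.7 CPM in control. Kcnh1, a voltage-gated potassium channel, had 19.2, 19.6 and 13.9 CPM in OE, 17.2 and 16.1 CPM in KD, and 27.9 and 47.4 CPM in control. The log2 difference became -1.18 (adjusted p = 0.230) for Pex5l and -0.69 (adjusted p = 0.419) for Kcnh1 without control 2, and -0.56 (adjusted p = 0.692) for Trhde without control 1. Trhde degrades thyrotropin-releasing hormone, Nars2 charges mitochondrial asparagine tRNA, Esrrg is an orphan nuclear receptor and Flrt1 a cell adhesion protein. Among the falls of at least 1 log2 unit, Slc1a2, Kcnh1, Car8, Larp1b, Flrt1 and Pnmal1 had the OE minus KD intervals that reached least far from 0. That is how they were chosen and not a result. The interval of Slc1a2 (-0.56 to -0.14) still left out 0, with OE below KD. Car8, a carbonic anhydrase relative without that activity, averaged 26.7 ± 3.06 CPM over both viruses (SD, n = 5) and 55.1 ± 0.892 CPM in control (SD, n = 2).

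Genes of neuronal transport and release gave few calls, although both lists were lower in sum. The 30 synaptic vesicle and release genes summed to 4782 to 5635 CPM in the virus arm against 6492 to 6507 CPM in control, with 2 called lower (6.67%, against 0.569% of all genes tested), 10 below both controls in each virus library and a median of -0.19. The 18 kinesin and dynein motor genes summed to 3391 to 3757 CPM in the virus arm against 4163 to 4203 CPM in control, with 1 called lower (5.56%), 8 below both controls in each virus library and a median of -0.20. Over all genes tested 11.4% lay below in that way. Kif3c, a kinesin of axonal transport, was the 1 call among 18 motor genes, with 132, 117 and 125 CPM in OE, 103 and 100 CPM in KD, and 200 and 229 CPM in control (log2 difference -0.89, SE 0.14, adjusted p = 0.00169). Unc13a, which primes synaptic vesicles and carries variants linked to ALS in people, had 116, 105 and 106 CPM in OE, 96.8 and 106 CPM in KD, and 165 and 190 CPM in control (log2 difference -0.74, SE 0.13, adjusted p = 0.00436). Sh3gl2, endophilin, which acts in vesicle retrieval, fell by 0.62 on the log2 scale, and it and Unc13a were the 2 calls among 30 synaptic vesicle genes. Slc17a6, the vesicular glutamate transporter of excitatory neurons, fell by 0.62. Of 35 potassium channels 2 fell (5.71%, against 0.569% of all genes tested), Kcnh1 and Kcnf1, a silent modulatory subunit (-1.09). Among 24 sodium, calcium and HCN channel genes Pex5l fell and Scn3b, a sodium channel beta subunit, rose by 0.61. Each is 4.17% of the list, against 0.569% of all genes tested called lower and 2.61% called higher. Without control 2 none of these genes was called, and without control 1 Kif3c, Unc13a, Kcnh1 and Pex5l were, while Sh3gl2, Slc17a6, Kcnf1 and Scn3b were not. The adjusted p without control 2 was 0.0921 for Kif3c, 0.149 for Unc13a and 0.230 for Pex5l.

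Cholesterol synthesis was low as a list with a single call (5.0% of its 20 tested members, against 0.569% of all genes tested). Insig1, which holds back the sterol sensor, fell to 196, 175 and 163 CPM in OE and 167 and 151 CPM in KD, against 257 and 268 CPM in control (log2 difference -0.62, SE 0.12, adjusted p = 0.00895), and was not called without control 1 (adjusted p = 0.0744) or control 2 (0.162). All 20 tested members had a negative log2 difference (median -0.44), and 14 lay below both controls in each virus library, where 11.4% of all genes did. The sum of the list was 2926 to 3093 CPM in OE and 2447 and 2410 CPM in KD, against 3738 and 3789 CPM in control. Called higher in OE than in KD were 3 members, against 2.93% of all genes tested. The CCAAT word stood in all 13 promoters of the list with an entry, and the sterol element TCACNCCAC in none of the 13, against 1.36% of all.

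**Figure D4:**
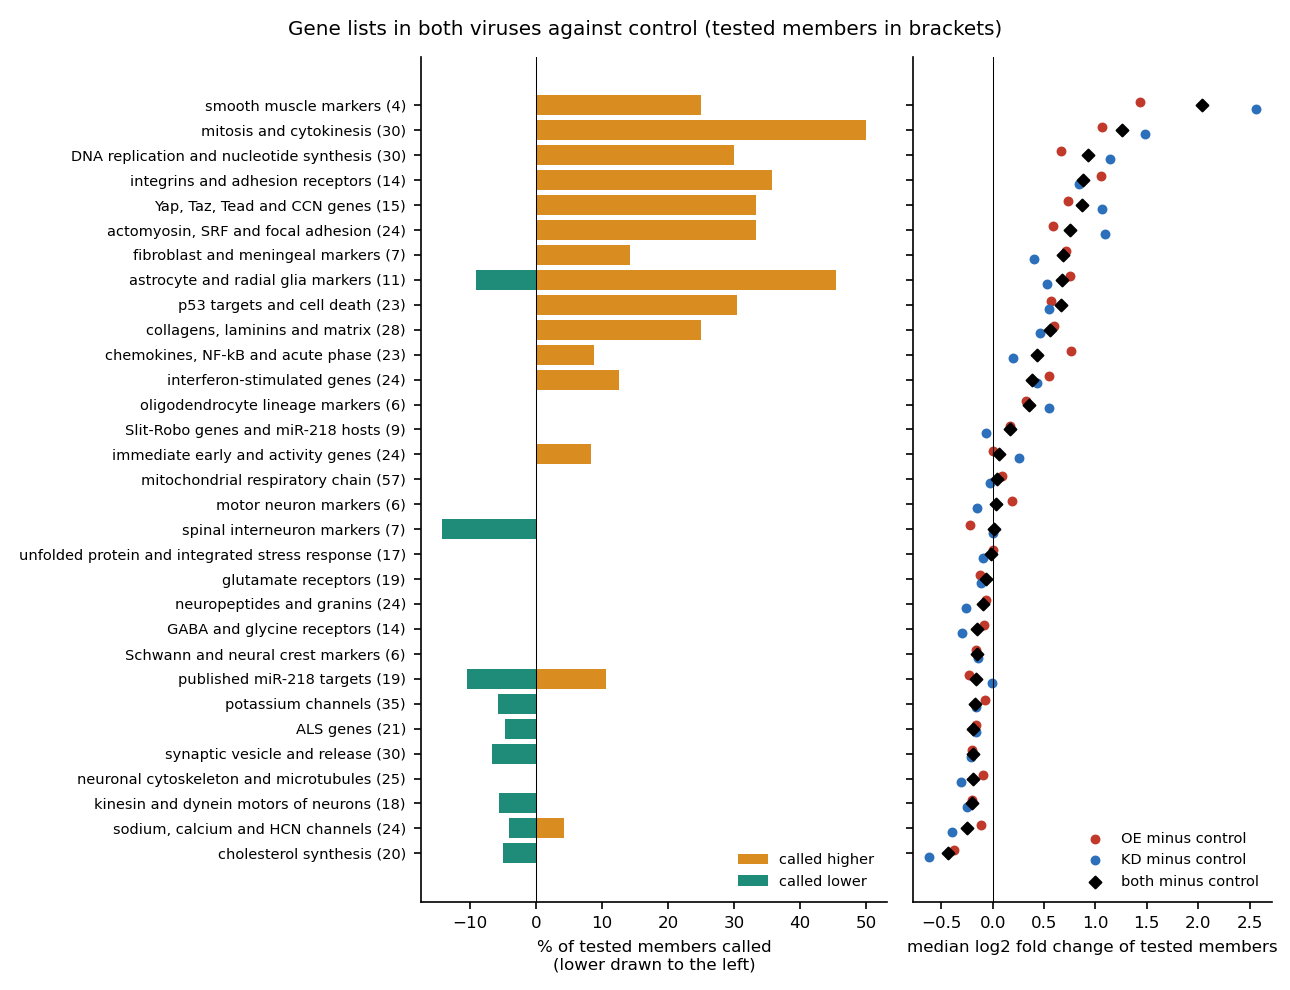
Left, percentage of each list's tested members (number in brackets) called higher (orange) or lower (green, to the left) in both viruses against control. Right, median log2 fold change of the tested members for OE minus control (red), KD minus control (blue) and both minus control (black), with mitosis at 1.26 and cholesterol synthesis at -0.44 over both viruses. Both sets share the same controls.

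Several lists gave no call. None of 17 genes of the unfolded protein and integrated stress response was called (median -0.02), none of 57 genes of the mitochondrial respiratory chain (median 0.04), none of 25 genes of the neuronal cytoskeleton (-0.19), none of 19 glutamate receptor genes (-0.07), none of 14 GABA and glycine receptor genes (-0.15), and none of 24 neuropeptide genes (-0.10). A list without a pooled call can still differ between the viruses. Called higher in OE than in KD were 3 of 25 cytoskeleton genes and 4 of 24 neuropeptide genes, with 1 neuropeptide gene lower, against 2.93% and 2.37% of all. So were 5 of 30 synaptic vesicle genes and 5 of 24 sodium, calcium and HCN channel genes, with 2 of these channel genes lower. In the cytoskeleton list Mapt, the microtubule protein tau, had 1982, 1935 and 1885 CPM in OE and 891 and 924 CPM in KD, against 2044 and 2130 CPM in control. Nefm, a neurofilament subunit, had 512, 401 and 512 CPM in OE and 142 and 156 CPM in KD, against 448 and 345 CPM in control. Of 24 immediate early and activity genes Jun (0.67) and Klf4 (1.24), both transcription factors, rose (8.33%, against 2.61% of all genes tested). Neither was called without control 1 (adjusted p = 0.292 and 0.204) or control 2 (0.184 and 0.276), nor without any 1 of the OE libraries. Oligodendrocyte lineage, Schwann cell and endothelial markers held no call, and red blood cell markers had too few counts to be tested.

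Of the 386 genes called in both viruses together, 26 also differed between OE and KD, a share not far from the 5.3% of all genes tested. The 5 rises of greatest OE minus KD difference were Sgol1, a guardian of centromere cohesion, Prkcdbp, a caveola protein, Cnn2, Cenpa and Neurod1, a neuronal transcription factor, all higher in KD. Sgol1 had 8.21, 17.5 and 13.0 CPM in OE, 24.0 and 27.0 CPM in KD, and 5.38 and 3.84 CPM in control, and OE minus KD was -0.99 (95% interval -1.61 to -0.37, adjusted p = 0.0372). Neurod1 had 24.3, 25.2 and 19.1 CPM in OE, 41.5 and 39.9 CPM in KD, and 12.7 and 7.69 CPM in control. The 5 such falls, all lower in KD, were 5730508B09Rik, 2310014L17Rik, Dpysl5, a collapsin response mediator of axon growth, Elmo1, an activator of the GTPase Rac, and Siah2, a ubiquitin ligase. 2310014L17Rik had 119, 105 and 135 CPM in OE, 67.1 and 67.2 CPM in KD, and 222 and 241 CPM in control, with OE minus KD at 0.84 (0.56 to 1.12, adjusted p = 5.63e-05). For these 10 genes the group means ran in the order KD, OE, control, so that OE lay on the same side of control as KD and nearer to it. Against control none of the 10 was called without control 1 or without control 2.

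A word that pairs with the miR-218 seed was sought in 3' UTRs annotated on mm9, taking the longest one per gene, available for 11133 of the genes tested (91.8%). An 8mer match, AAGCACAA, was present in 527 genes, of which 4 rose and 12 fell (0.759% and 2.28%). Among 6677 genes without even the 6mer AGCACA, 216 rose and 22 fell (3.23% and 0.329%), and among all genes with a 3' UTR 304 rose and 61 fell (2.73% and 0.548%). The median log2 difference over both viruses was -0.10 with an 8mer and 0.03 without a 6mer. It split by virus, with medians of -0.17 in OE minus control and 0.00 in KD minus control for the 8mer genes, values that share the controls. The classes also differed in 3' UTR length, with medians of 2622 bases with an 8mer and 849 bases without a 6mer, and the part of length in the difference was not tested.

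**Figure D5:**
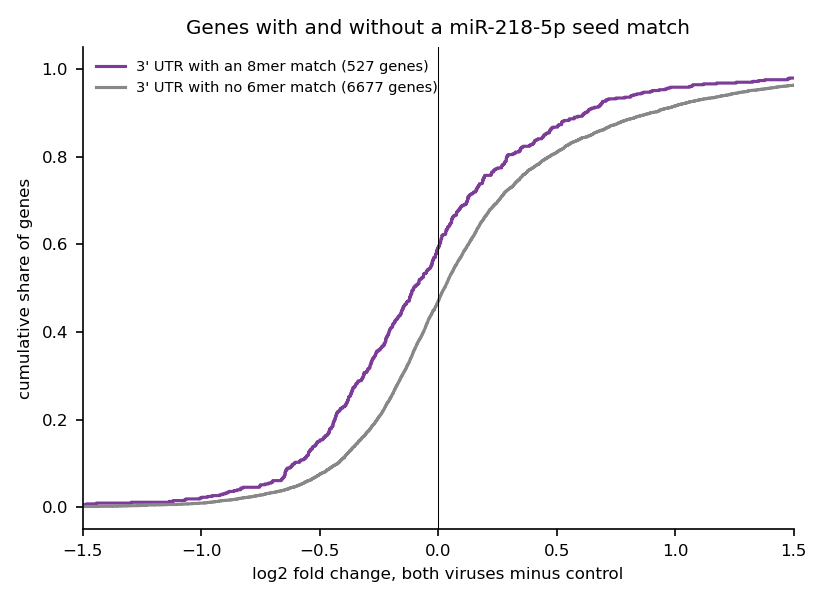
Cumulative share of genes against the log2 fold change of both viruses minus control, for 527 genes whose 3' UTR holds an 8mer match to the miR-218-5p seed (purple) and 6677 genes without a 6mer match (grey). The purple curve lies to the left of the grey one, with medians of -0.10 and 0.03.

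The 12 genes with an 8mer that fell were Pex5l, Trhde, Kcnh1, Elmo1, Rnf41, Rab3b, Ncan, Cpne8, Fgf12, Ccdc88a, Rabep1 and Adcy1, and the 4 that rose were Zeb2, Apln, Itpripl1 and Cep55. The matches of the 4 greatest of these falls are shown, chosen by size. They lay below both controls with either virus, as all 69 falls did, which follows from the call and does not set them apart. Capitals mark the 8mer, each window is 30 bases of the 3' UTR on the strand of the gene, and coordinates are on mm9: chr3:32849377-32849406 (minus) for Pex5l, chr10:113838003-113838032 (minus) for Trhde, chr1:194333956-194333985 (plus) for Kcnh1 and chr13:20697977-20698006 (plus) for Elmo1.
Pex5l: gttcagacccaaAAGCACAAagcgaaggtc
Trhde: ggcattatgcgaAAGCACAAcgattaccta
Kcnh1: acatttttaaacAAGCACAAatgatatttg
Elmo1: gcccttagcagaAAGCACAAatgaagtcag

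Each of these 4 genes holds the word once. Pex5l had a log2 difference of -1.61 in OE minus control and -1.85 in KD minus control, Kcnh1 -1.08 and -1.16, Elmo1 -0.83 and -1.52 and Trhde -1.20 and -2.05, all against the same controls. Trhde had 8.82, 9.08 and 7.41 CPM in OE, 4.37 and 4.99 CPM in KD, and 27.9 and 10.3 CPM in control, and OE minus control missed the threshold (adjusted p = 0.0584). Elmo1 had 94.9, 96.4 and 74.4 CPM in OE, 51.2 and 58.1 CPM in KD, and 143 and 172 CPM in control, so its level was lower with the knockdown virus than with the overexpression virus (OE minus KD 0.69, 95% interval 0.37 to 1.02, adjusted p = 0.00348). Slc1a2 holds no 8mer but 6 copies of the 7mer AAGCACA in a 3' UTR of 9250 bases. Of 19 published miR-218 targets tested, 2 fell (10.5%, against 0.569% of all genes tested), Slc1a2 and Kcnh1, and the median was -0.16. Another 2 rose (10.5%, against 2.61%), Gja1 and Birc5, where Birc5 is an inhibitor of apoptosis that acts in mitosis (log2 difference 1.40, adjusted p = 0.0493). Both rises were also called higher in KD than in OE, with OE minus KD at -0.65 for Gja1 and -0.74 for Birc5 (edgeR adjusted p = 0.0017 and 0.0179). Of the 19 targets 3 were called higher in KD than in OE, against 2.37% of all genes tested, and none lower. Birc5 was called in 5 of the 16 other settings, with log2 differences of 0.98 (without control 2) to 2.10 (without control 1), and Gja1 was not called with either control left out (adjusted p = 0.109 without control 1 and 0.218 without control 2). The count of 12 falls with an 8mer became 3 without control 1, 0 without control 2 and 35 with the unweighted mean of the group means.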

How the data were processed

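Groups and replicate numbers came from the sample titles, and all 3 OE libraries were used although the design text speaks of duplicates. Per the labels' protocols, 50-base single reads from 1 sequencing lane were aligned to mm9 by TopHat2 2.0.10, and those with a unique place were assigned to genes by HTSeq-count 0.6.1p1. Which annotation and strand setting were used is not given in the sources used here, and overlapping or antisense genes cannot be told apart. The deposited values used were the raw counts per gene of 7 libraries. The authors' scaled counts and their own comparisons, made with DESeq2 1.4.5 per the labels, were not used.

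The fits used edgeR 4.0.16 under R 4.3.3, with TMM scaling, filterByExpr by arm, and the robust quasi-likelihood F test, two-sided, with both viruses as 1 arm (5 residual degrees of freedom, coefficient of variation between replicates 17.7%). A second fit with 1 mean per group (4 residual degrees of freedom, 12.5%) gave OE against KD with 95% intervals. P-values were Benjamini-Hochberg adjusted over all 12134 genes tested, and the thresholds, adjusted p under 0.05 and fold change over 1.5, are those the labels state. Standard errors are of log2 differences. Counts were not independent molecules where PCR copied them. The fit was tested on simulated data.

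The members and gene lists were chosen with earlier results of these data known, so no list was tested and no p was adjusted over a list. Genes were named among calls with a mean of at least 10 CPM and arms that do not overlap: the 12 greatest rises and falls, the 6 of each whose OE minus KD interval reached least far from 0 among those of at least 1 log2 unit, the 5 of each that differed most between OE and KD, and up to 4 called members per list. Other genes were named after their values were seen. Sequences of the microRNA and of promoters came from RefSeq (GRCm38.p6), and 3' UTRs, sites and gene positions from GENCODE vM1 on mm9. Alternatives were DESeq2 1.42.0, limma-voom (limma 3.58.1), RLE or no scaling, other filters, thinning, a replicate block, unweighted group means, and leaving out each library.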

Additional observations from a re-analysis of the deposited data

Results flagged for a closer look

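These 10 genes were called with both viruses together against control and also differed between the viruses in edgeR's test of OE against KD, which is what singled them out. Among the rises, with OE minus KD on the log2 scale, the values were -0.99 for Sgol1, -0.98 for Prkcdbp, -0.92 for Cnn2, -0.86 for Cenpa and -0.83 for Neurod1, each higher under KD. Among the falls they were 0.93 for 5730508B09Rik, 0.84 for 2310014L17Rik, 0.74 for Dpysl5, 0.69 for Elmo1 and 0.59 for Siah2, each lower under KD. The adjusted p ran from 5.63e-05 for 2310014L17Rik to 0.0397 for 5730508B09Rik. Among the 5 virus libraries no total count, and no level of a gene named by size, likeness or difference, had a gap to its nearest neighbour above Dixon's 95% critical value. Below that value OE replicate 1 was still lowest by a margin in Hmmr (5.78 CPM, against 11.5 to 21.8 in the other 4) and Pask (8.21 CPM, against 14.2 to 17.3). KD replicate 1 was lowest in Wisp2 (5.62 CPM, against 12.3 to 21.0) and Pex5l (6.87 CPM, against 9.73 to 11.1).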

How the results depend on the processing

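The 317 rises and 69 falls became 75 and 33 with limma-voom, 145 and 23 with a replicate block and 664 and 299 with unweighted group means, and DESeq2 called 112 falls. Leaving out 1 library each gave 31 to 347 rises and 2 to 78 falls, lowest without control 2 (31 and 2), then without control 1 (108 and 19). With 1 control left, that library is assumed to vary like the virus libraries. The 356 genes higher in OE than KD ranged from 227 (without KD replicate 1) to 410, and the 287 higher in KD from 111 (without KD replicate 2) to 356, with 187 without OE replicate 1, 133 without KD replicate 1 and 191 by DESeq2. The 26 pooled calls that also differed between OE and KD became 45 without a filter on low counts, 53 by DESeq2, 2 by limma-voom, 185 with unweighted group means and 9 with the replicate block, and 0 to 22 with 1 library left out. Library totals in place of TMM gave 351 rises and 54 falls, and RLE 313 and 76. No gene named by rule changed direction under any of these settings. With a library left out, this follows for the called genes from arms that do not overlap. The causes of these changes were not tested.

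The replicate numbers were not taken as pairing libraries: deviations of same-numbered libraries correlated at -0.0538 to 0.0258 across genes, so the block result of 145 rises and 23 falls is given here only. The 12 falls with an 8mer match, an outcome added after seeing the data, became 6 with the block and 0 without control 2. Few control reads limit the largest rises, where 32 of the 317 had 10 or fewer reads over both controls.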

Other observations

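Several genes called under all settings, chosen for description after their values were seen, belong to membranes, proteases and redox control. Cav1, the coat protein of caveolae, had 54.4, 59.4 and 72.2 CPM in OE, 59.9 and 71.0 CPM in KD, and 17.1 and 11.5 CPM in control (log2 difference 2.12, SE 0.24). Plat, the tissue plasminogen activator, had 186, 186 and 199 CPM in OE and 220 in both KD libraries, against 104 and 116 CPM in control. Serpinh1, the collagen chaperone of the endoplasmic reticulum, had 415, 540 and 471 CPM in OE, 522 and 463 CPM in KD, and 257 and 247 CPM in control. Txnip, an inhibitor of thioredoxin, lay higher in KD, with 42.9, 61.5 and 60.2 CPM in OE and 74.3 and 84.8 CPM in KD, against 15.6 and 18.6 CPM in control (OE minus KD -0.54, 95% interval -0.91 to -0.17, edgeR adjusted p = 0.0629). Nbea had 309, 297 and 292 CPM in OE, 260 and 245 CPM in KD, and 500 and 582 CPM in control, a log2 difference of -0.95 (SE 0.11).

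At the low end, Gstt3, a glutathione transferase, and Susd2 had no read in either control and 1.52 to 6.99 CPM in the virus libraries, and Piwil2, an Argonaute protein of the germ line, had 0.000 to 0.624 CPM in the virus libraries against 5.38 and 3.84 CPM in control. These calls rest on few reads, with 17 for Piwil2 over both controls.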
